A study of Juglans regia with 15 samples.

Results

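JrANR (JreChr09G12363), the walnut homolog of the anthocyanidin reductase gene, had a level that went up, down, up and up again through endopleura development, and 97 further genes were found that moved the same way at every step. They were chosen from the expression values themselves. A gene was taken if it had at least 1 FPKM in at least 3 of the 15 libraries, and if every library at 63 days after pollination (DAP) was above every library at 35 DAP, every library at 91 DAP below every library at 63 DAP, every library at 119 DAP above every library at 91 DAP, and every library at 147 DAP above every library at 119 DAP. Of 22310 genes that passed the expression limit, among 39414 in the table, 100 met the rule, and 97 remained when JrANR, its homolog JreChr02G11482 and the chalcone synthase gene JreChr02G10304 were left out. All libraries came from the endopleura of 1 cultivar, "Linzaoxiang", with no treatment and no second genotype. Each of the 5 stages (35, 63, 91, 119 and 147 DAP) had 3 libraries, and each library held the mixed endopleuras of 7 nuts. Whether the 3 mixtures of a stage came from separate trees is not stated, so the p-values below measure the spread between these libraries.

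The endopleura is the thin, tannin-rich seed coat that covers the walnut kernel, and its color is a market trait. Its polyphenols come from the flavonoid pathway, in which chalcone synthase makes the first flavonoid skeleton, dihydroflavonol reductase and leucoanthocyanidin dioxygenase lead on to anthocyanidins, and anthocyanidin reductase turns anthocyanidins into flavan-3-ols, the building units of condensed tannins. In Arabidopsis the ANR gene (BANYULS) acts in the young seed coat. Expression is given as FPKM, the number of sequenced fragments scaled to transcript length and to the size of the library. Differences are given with their standard error on the log2(FPKM + 1) scale, which understates changes of genes with low values, and were tested with limma over the 22310 genes with Benjamini-Hochberg adjustment and a threshold of 0.05. The members were chosen from these same libraries by stages without overlap. Their p-values are thus descriptions, also between stages that the rule does not order.

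The libraries were of like depth, with relative depths that differed by at most 1.35 times, and their FPKM values summed to between 851621 and 1113620. The absolute depth is unknown. The 10 most abundant genes took on average 25.7% of the FPKM sum at 147 DAP, against 6.94% at 35 DAP. Genes listed here as genes of the embryo, which the endopleura encloses, were also seen. No embryo library is in this series, so the tissue that their RNA came from is not known. Of 5 listed embryo genes (a pair of glutelins, an oleosin, the oleate desaturase JrFAD2 and a late embryogenesis abundant protein) all 5 were measured, and 1 of them, the glutelin JreChr03G12610, was listed at 0 in 1 library at 35 DAP. Their summed level ran from 6.95 to 24.1 FPKM at 35 DAP, 1895 to 6758 at 63 DAP, 5066 to 10133 at 91 DAP, 3604 to 20153 at 119 DAP and 2094 to 3523 at 147 DAP. The 5 genes did not move alike at the end. Between 119 and 147 DAP the glutelins and JrFAD2 were lower by limma. The late embryogenesis abundant protein was higher (means of 177 and 393 FPKM), and the oleosin was not called (581 and 1050 FPKM). The highest sum was that of replicate 2 at 119 DAP, against 6467 and 3604 FPKM in the other libraries of that stage. Most of it came from the glutelins, with 7406 and 10963 FPKM. Whether embryo RNA has a part in the members' levels was not tested. In bulk tissue, fewer cells of a type and less RNA per cell cannot be told apart.

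The 4 steps of the rule are described here and not tested, since they chose the genes. Among all tested genes, the separation of libraries that each step asks for was met by 26.1% (63 above 35 DAP), 26.9% (63 above 91 DAP), 15.2% (119 above 91 DAP) and 17.8% (147 above 119 DAP), and all 4 together by 0.448%. The median over the members of the stage mean was 6.30, 17.7, 6.98, 18.4 and 48.5 FPKM from 35 to 147 DAP, whereas over all tested genes it was 12.99, 12.01, 10.7, 11.1 and 10.3 FPKM. The median ratio of means was 2.31 for 63 over 35 DAP, 2.30 for 63 over 91 DAP, 2.11 for 119 over 91 DAP and 2.43 for 147 over 119 DAP, leaving out ratios to stages with a library listed at 0. The first rise and the following fall thus had like medians. In 36 members the means changed by at least 2 times at every step. The last step was the largest on the log2 scale in 36 members, the fall after 63 DAP in 23, the rise to 119 DAP in 20 and the first rise in 18. The levels themselves ranged widely, since the mean at 147 DAP lay between 1.71 and 1423 FPKM, was at least 10 FPKM in 73 members and at least 100 FPKM in 29. In 11 members at least 1 library was listed at 0.

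**Figure D1:**
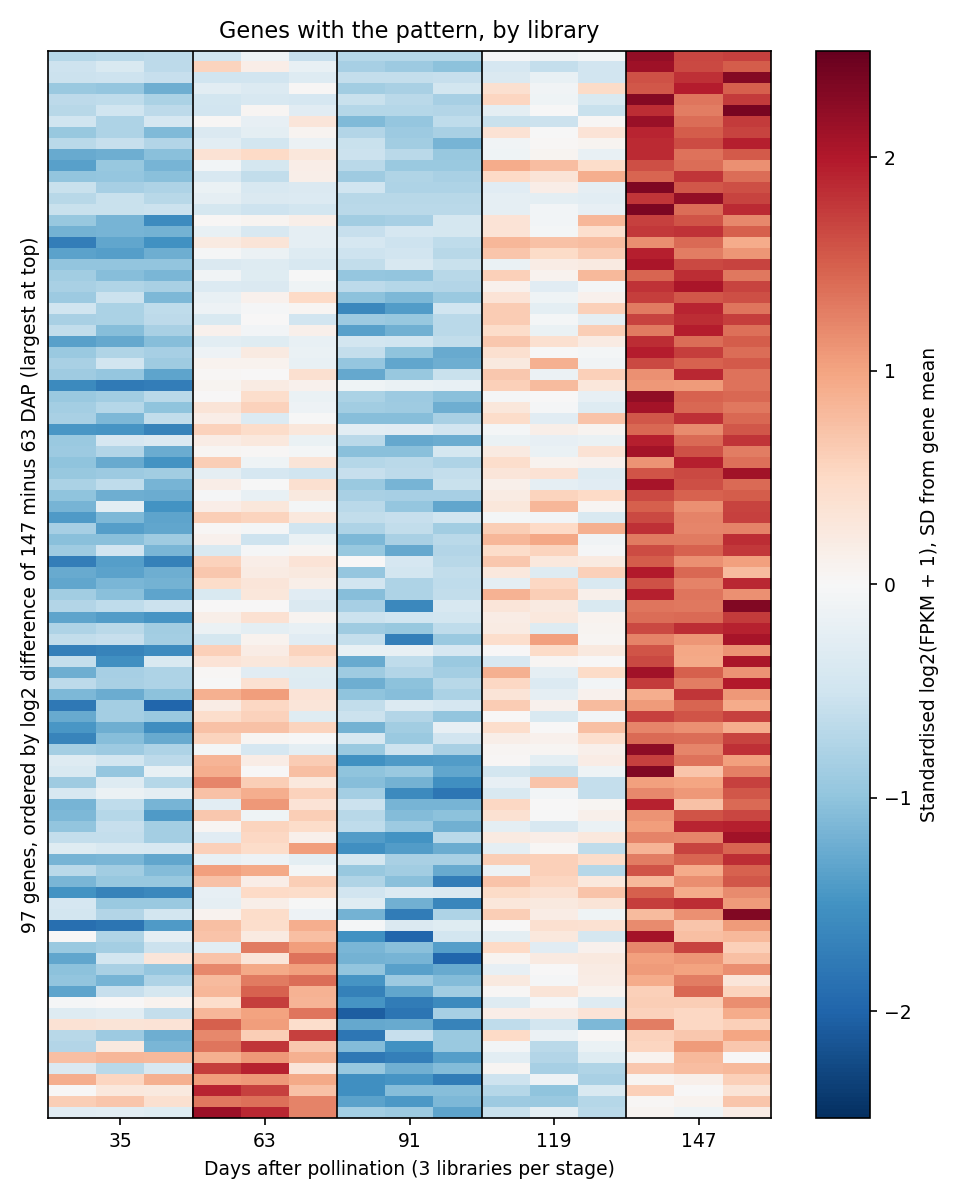
Heat map of the 97 members (rows, ordered by the log2 difference of 147 minus 63 DAP) in the 15 libraries (columns, 3 per stage). Color is log2(FPKM + 1) in standard deviations from the gene's own mean. The 147 DAP libraries are the reddest for most rows, and the 13 genes with their highest mean at 63 DAP lie toward the bottom.

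The rule has a sharp edge. JreChr04G11353 (chromosome 4, 3116358 to 3117242) was inside by the narrowest margin, as its lowest library at 63 DAP had 20.62 FPKM and its highest library at 35 DAP had 20.60 FPKM. JreChr09G11773 passed with 0.543 FPKM in its highest library at 91 DAP against 0.544 FPKM in its lowest at 63 DAP, and JreChr03G10698 with 6.17 FPKM in its lowest library at 119 DAP and 6.14 FPKM in its highest at 91 DAP. Just outside were JreChr07G11420 (lowest library 35.94 FPKM at 119 DAP, highest 35.95 FPKM at 91 DAP), JreChr08G12118 (86.2 FPKM at 119 DAP against 86.5 FPKM at 91 DAP) and JreChr13G11389 (33.4 FPKM at 63 DAP against 33.6 FPKM at 35 DAP). When a gap of at least 1.2 times was asked for at each step, 42 members remained. When stage means were used with each step past the limma threshold, 48 genes qualified, of which 42 were members. Leaving out a library can only loosen the rule, and it took 150 genes when replicate 3 at 91 DAP was left out.

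Annotation was found for 8 of the 97 members, in supplementary tables of the study that list 4583 genes. An entry in these tables was held by 9.28% of the members, against 8.48% of all tested genes. None of the 8 belonged to the flavonoid pathway by its annotation. This says nothing about the pathway, since JrANR, JreChr02G11482 and JreChr02G10304, the listed flavonoid genes with the full pattern, had been left out beforehand.

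The annotated member with the highest level was JreChr16G10807 (chromosome 16, 2909629 to 2918746), homologous to the Arabidopsis gene AT4G34110, with the RNA recognition and C-terminal domains of a polyadenylate-binding protein. Such proteins coat the poly(A) tail of mRNA and act in its translation and stability. It had 259.8, 260.4 and 244 FPKM at 35 DAP, 280.3, 339 and 309 at 63 DAP, 215, 210.1 and 255 at 91 DAP, 316, 312 and 319.6 at 119 DAP, and 404, 400.5 and 495 at 147 DAP. The changes were modest and the level was high at every stage. Between 147 and 35 DAP, which the rule does not order, the means were 433 ± 53.6 and 255 ± 9.25 FPKM (SD, n = 3 each), and the limma difference was 0.76 ± 0.12, adjusted p = 5.75e-05.

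JreChr01G13075 (chromosome 1, 480640 to 482636) encodes a protein with a DUF4228 domain, found in a plant family of mostly unknown function, and is homologous to AT5G67620. It had 49.6, 50.9 and 54.6 FPKM at 35 DAP, 253, 189.5 and 249 at 63 DAP, 147, 147 and 124 at 91 DAP, 169, 235 and 198 at 119 DAP, and 504, 329 and 372 at 147 DAP. All libraries from 63 DAP on were above the 3 at 35 DAP, and the trough at 91 DAP stayed well over the level at 35 DAP (91 minus 35 DAP, 1.41 ± 0.17, adjusted p = 5.02e-06, limma). At 147 DAP it was also above 63 DAP (0.79 ± 0.17, adjusted p = 0.00111, limma).

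Proteins with domains of membrane traffic were represented by a pair of members. JreChr03G12616 (chromosome 3, 42539460 to 42543903; AT1G06210) holds VHS and GAT domains, which in yeast and animals bind sorted cargo and ubiquitin. It had 96.2, 92.0 and 93.5 FPKM at 35 DAP, 136, 164 and 163 at 63 DAP, 127, 131 and 131 at 91 DAP, 163, 159.7 and 174 at 119 DAP, and 215, 185 and 197 at 147 DAP, a narrow range in which the libraries at 147 and 35 DAP did not overlap (1.07 ± 0.10, adjusted p = 1.99e-07, limma). JreChr03G12415 (chromosome 3, 40623883 to 40631108, homologous to AT5G35200) holds an ANTH/ENTH domain, which binds membrane lipids. It had 20.3, 20.8 and 21.2 FPKM at 35 DAP, 29.9, 26.9 and 26.0 at 63 DAP, 24.8, 23.8 and 24.6 at 91 DAP, 39.8, 41.2 and 28.4 at 119 DAP, and 77.6, 81.2 and 103 at 147 DAP. Here the first rise was small and most of the gain lay in the last step (147 minus 119 DAP, 1.24, of 2.01 for 147 minus 35 DAP). The level at 147 DAP was also above that at 63 DAP (1.62 ± 0.14, adjusted p = 3.08e-07, limma).

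The largest relative changes among annotated members were those of a proline-rich protein and of a small protein without a named domain. JreChr10G12201 (chromosome 10, 8693078 to 8694054; AT4G16380), annotated as a proline-rich protein, had 3.32, 3.29 and 2.32 FPKM at 35 DAP, 53.9, 46.4 and 37.1 at 63 DAP, 18.3, 17.6 and 13.9 at 91 DAP, 24.0, 31.1 and 27.8 at 119 DAP, and 161, 114 and 185 at 147 DAP. Its means were 153 ± 35.7 FPKM at 147 DAP and 2.98 ± 0.57 FPKM at 35 DAP (SD, n = 3 each), a ratio of 51.5 (5.26 ± 0.19, adjusted p = 1.74e-11, limma). JreChr01G12424 (chromosome 1, 4254388 to 4254777; AT5G66780) had 1.07, 0.685 and 0.744 FPKM at 35 DAP, 14.6, 17.1 and 15.1 at 63 DAP, 11.6, 10.6 and 10.4 at 91 DAP, 28.4, 36.1 and 18.9 at 119 DAP, and 52.2, 50.1 and 72.7 at 147 DAP. It was near the expression limit at 35 DAP and never returned to that level afterward (91 minus 35 DAP, 2.70 ± 0.20, adjusted p = 3.87e-08, limma).

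JreChr05G12191 (chromosome 5, 38052850 to 38053422; AT2G46150) carries the domain shared by late embryogenesis abundant and harpin-induced 1 proteins. Harpin-induced proteins were first known from plant defense. It had 6.68, 10.3 and 5.23 FPKM at 35 DAP, 15.1, 21.0 and 31.8 at 63 DAP, 5.82, 5.25 and 6.55 at 91 DAP, 27.1, 16.6 and 20.9 at 119 DAP, and 115, 97.2 and 104 at 147 DAP. Its libraries at 91 and 35 DAP overlapped, and no difference between these stages was called (-0.25 ± 0.25, adjusted p = 0.419, limma). JreChr07G10012 (chromosome 7, 1012742 to 1014960; AT3G05100), an expressed protein, had 27.7, 27.8 and 27.0 FPKM at 35 DAP, 33.1, 33.4 and 32.7 at 63 DAP, 31.6, 29.5 and 29.5 at 91 DAP, 38.2, 38.1 and 37.2 at 119 DAP, and 43.0, 44.4 and 47.7 at 147 DAP. It was the annotated member with the smallest change between 147 and 35 DAP (0.69 ± 0.08, adjusted p = 3.23e-06, limma), yet its 3 libraries lay so close together that the stages stayed apart.

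**Figure D2:**
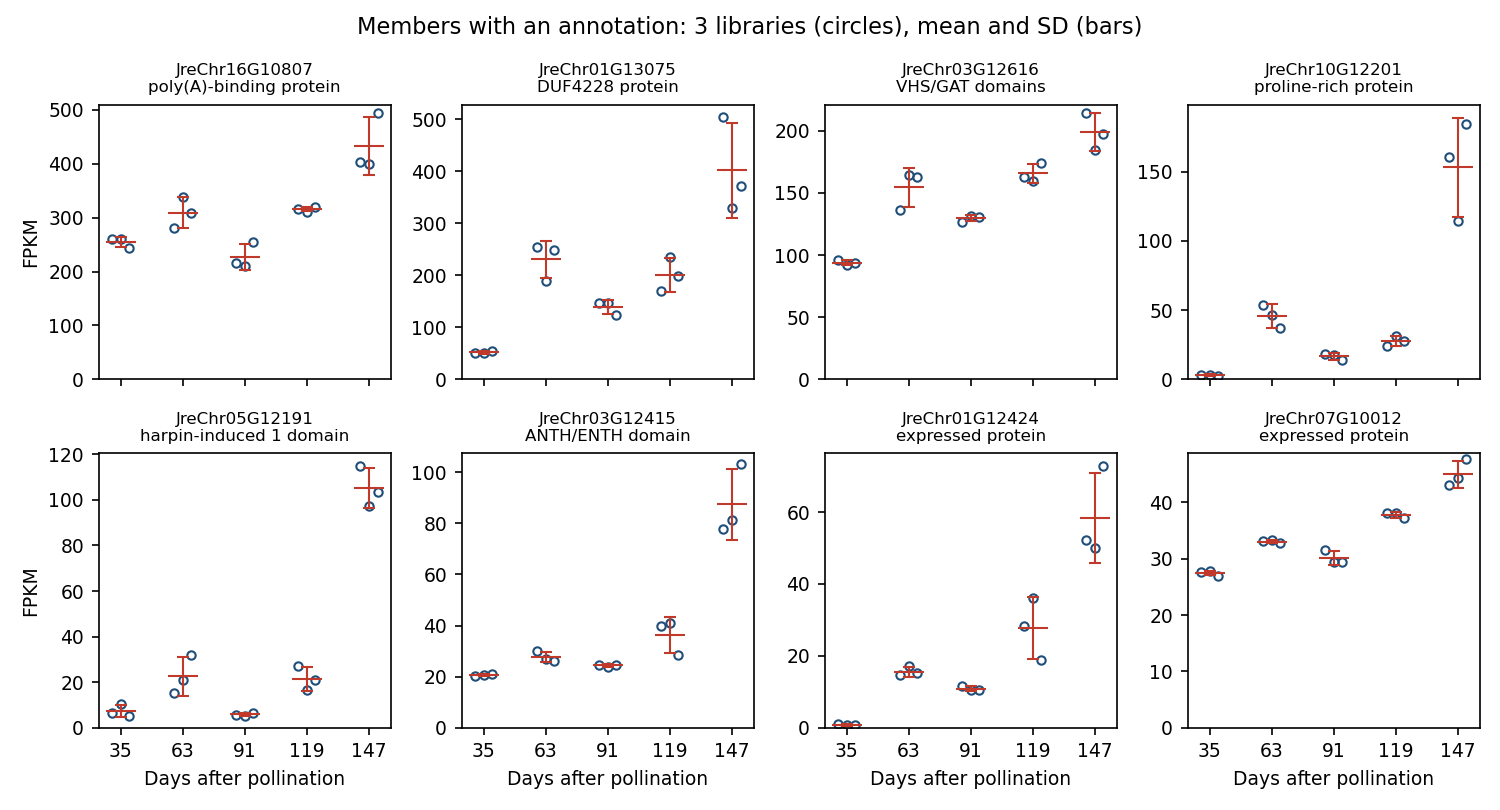
FPKM (y axes, linear and from 0) of the 8 annotated members by stage (x axes, DAP). Circles are libraries, and red bars are the mean and SD of 3 libraries. JreChr16G10807 stays above 200 FPKM throughout, whereas JreChr10G12201 and JreChr01G12424 start below 4 FPKM.

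The 5 members with the highest mean at 147 DAP were JreChr09G10972, JreChr07G12902, JreChr03G12977, JreChr02G11831 and JreChr16G10807, and all but JreChr16G10807 are without annotation. JreChr09G10972 (chromosome 9, 23618203 to 23618547) had 547, 409 and 602 FPKM at 35 DAP, 1039.7, 663 and 964 at 63 DAP, 401, 416 and 346 at 91 DAP, 525, 504 and 626 at 119 DAP, and 2094, 934 and 1242 at 147 DAP. It had at least 346 FPKM in every library, and its libraries at 147 and 63 DAP overlapped (147 minus 63 DAP, 0.62 ± 0.26, adjusted p = 0.055, limma). JreChr07G12902 (chromosome 7, 9088734 to 9090625) had 124, 93.1 and 109 FPKM at 35 DAP, 179, 197 and 210.1 at 63 DAP, 40.7, 50.6 and 124 at 91 DAP, 374, 159 and 366 at 119 DAP, and 729, 1319.5 and 747 at 147 DAP. Replicate 2 was the lowest of its stage at 119 DAP and the highest at 147 DAP, the order that JrANR also had. JreChr03G12977 (chromosome 3, 5426490 to 5426792), a short locus, had 97.3, 77.8 and 112 FPKM at 35 DAP, 197, 136 and 173 at 63 DAP, 80.7, 80.9 and 97.2 at 91 DAP, 243, 143 and 289.9 at 119 DAP, and 532, 648 and 487 at 147 DAP, with the same order of the libraries at both stages.

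Likeness to JrANR was measured as Pearson's r of log2(FPKM + 1) over the 15 libraries, as a description, since the stages form clusters and the rule fixes most of the shape. JrANR itself had 83.5, 71.0 and 72.6 FPKM at 35 DAP, 194, 187 and 189 at 63 DAP, 103, 110.2 and 109 at 91 DAP, 342, 181 and 344 at 119 DAP, and 706, 1058 and 661 at 147 DAP. Over the members r ran from 0.065 to 0.989 with a median of 0.88, against a median of -0.23 over all tested genes. In 8 members it was under 0.5, although they met every step. An r of at least 0.9 was held by 44 members and by 213 tested genes, JrANR left out. Thus 45.4% of the members reached this r, and 20.7% of the genes that reached it were members.

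JreChr02G11831 (chromosome 2, 28918759 to 28919925) was the most like JrANR (r = 0.99). It had 48.8, 40.1 and 36.9 FPKM at 35 DAP, 102, 83.5 and 111 at 63 DAP, 43.8, 43.0 and 57.5 at 91 DAP, 196, 122 and 240.2 at 119 DAP, and 443, 643 and 391 at 147 DAP. Its level at 147 DAP was below that of JrANR, and the ratio of 147 over 63 DAP means was 4.98 for this gene and 4.25 for JrANR. JreChr05G11706 (r = 0.99; chromosome 5, 33373279 to 33376542) had 3.58, 3.35 and 2.15 FPKM at 35 DAP, 9.34, 8.30 and 13.959 at 63 DAP, 3.85, 4.25 and 7.13 at 91 DAP, 22.6, 11.964 and 24.6 at 119 DAP, and 96.9, 161 and 90.9 at 147 DAP. Its last rise was steeper than that of JrANR, with a ratio of 147 over 119 DAP means of 5.90, against 2.80 for JrANR. The ratio of its 147 over 63 DAP means was 11.032. JreChr08G10320 (r = 0.98; chromosome 8, 1377335 to 1377932) had 5.397, 5.52 and 5.47 FPKM at 35 DAP, 14.3, 11.7 and 13.9 at 63 DAP, 9.996, 11.5 and 11.3 at 91 DAP, 23.5, 16.4 and 25.5 at 119 DAP, and 85.2, 87.6 and 66.2 at 147 DAP, and its fall at 91 DAP was shallow. JreChr07G11892 (r = 0.98; chromosome 7, 32648671 to 32649189) had 75.8, 63.3 and 39.1 FPKM at 147 DAP, against 1.68, 1.05 and 0.202 FPKM at 35 DAP. JreChr02G11537 (r = 0.97; chromosome 2, 26793030 to 26798146) had 223, 472 and 276 FPKM at 147 DAP, against 28.5, 25.9 and 18.2 FPKM at 35 DAP. Its libraries at 91 and 35 DAP overlapped, as did those of JreChr02G11831.

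**Figure D3:**
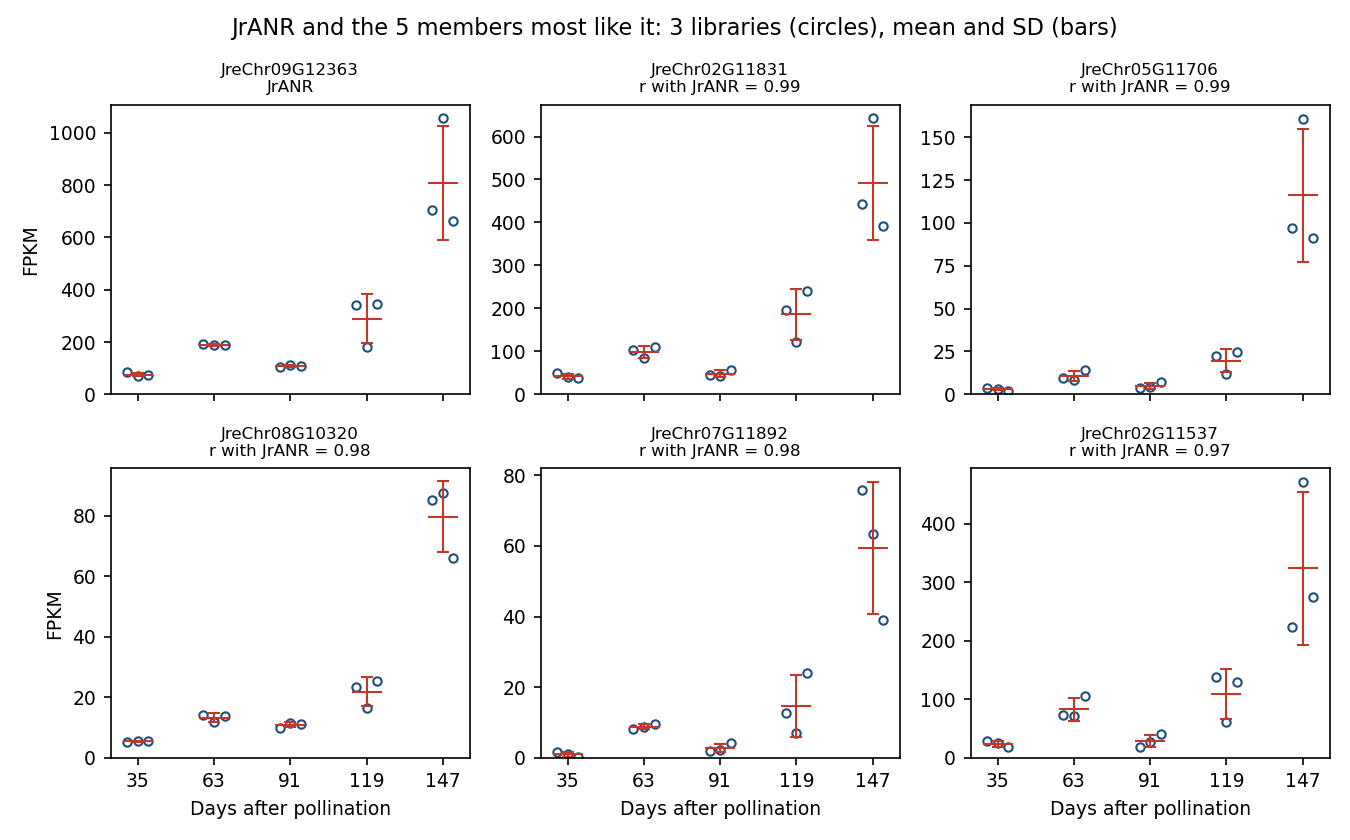
FPKM (y axes, linear, from 0, scaled per gene) of JrANR and of the 5 members with the highest r, by stage (x axes, DAP). Circles are libraries, and red bars are the mean and SD of 3 libraries. Within a stage replicates 1 to 3 are drawn from left to right. The circle of replicate 2 is the lowest of the 3 at 119 DAP in each of the 6 genes.

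The rule leaves 5 comparisons of stages without a fixed order, and in these the members differed from each other. They rest on the same libraries that chose the genes, so their counts and p-values are descriptions, and the counts are to be read beside the share of all genes. The rule asks for more rises than falls on the way to 147 DAP, so its choice tilts the members toward being higher there. How much of their difference from all tested genes is built in this way was not tested. At 147 against 35 DAP, 91 members were higher, 2 lower and 4 not called by limma, whereas 24.0% of all tested genes were higher and 43.7% lower. In 93 members every library at 147 DAP was above every library at 35 DAP, as it was in 27.6% of all tested genes. The split of all genes moved with the scaling of the libraries, to 34.8% higher and 34.8% lower after quantile normalization and 17.8% and 53.4% after rescaling to equal sums, while among the members 93 were higher and 1 lower with the first of these scalings and 83 higher and 3 lower with the other. The median difference over the members was 2.35 on the log2 scale, against -0.27 over all tested genes. Relative to the median of all genes it was 2.62, and between 2.54 and 2.65 with the other scalings.

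JreChr10G10929 (chromosome 10, 24702602 to 24705840) had the largest difference between 147 and 35 DAP. It had 0, 0.0801 and 0.128 FPKM at 35 DAP, 0.52, 2.32 and 0.292 at 63 DAP, 0, 0 and 0 at 91 DAP, 3.01, 2.27 and 2.68 at 119 DAP, and 391, 130.4 and 141 at 147 DAP. Listed at 0 in the 3 libraries at 91 DAP, it had nearly all of its signal in the last stage (7.51 ± 0.38, adjusted p = 3.84e-10, limma). JreChr02G11398 (chromosome 2, 2580066 to 2581553) had 1.59, 1.78 and 2.74 FPKM at 35 DAP, 38.1, 49.3 and 33.9 at 63 DAP, 7.66, 5.91 and 3.37 at 91 DAP, 17.2, 23.4 and 14.7 at 119 DAP, and 496, 209 and 281 at 147 DAP (6.68 ± 0.31, adjusted p = 1.61e-10, limma). The highest library at 147 DAP was replicate 1 in both genes. JreChr05G10234 (chromosome 5, 12129171 to 12130714) had 3.10, 6.92 and 4.64 FPKM at 35 DAP, 81.5, 94.8 and 40.0 at 63 DAP, 29.6, 25.1 and 20.9 at 91 DAP, 209, 179 and 193 at 119 DAP, and 358, 519 and 248 at 147 DAP (5.98 ± 0.32, adjusted p = 7.46e-10, limma). Unlike the genes before it, it was already high at 119 DAP, and it was higher there than at 63 DAP (1.499 ± 0.32, adjusted p = 0.00243, limma). JreChr14G10395 (chromosome 14, 1619907 to 1620458) had 1.56, 2.24 and 1.04 FPKM at 35 DAP, 13.9, 6.81 and 3.48 at 63 DAP, 0.532, 0.319 and 0.111 at 91 DAP, 2.01, 1.24 and 1.68 at 119 DAP, and 195, 89.7 and 73.4 at 147 DAP. Its 119 and 35 DAP libraries overlapped, and the 147 DAP libraries stood apart from all the rest (5.42 ± 0.40, adjusted p = 2.13e-08, limma).

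At the other end, the 3 smallest differences between 147 and 35 DAP were negative. JreChr05G12406 (chromosome 5, 4959600 to 4960518) had 8.57, 5.97 and 8.31 FPKM at 35 DAP, 9.76, 10.034 and 8.91 at 63 DAP, 0.197, 0.256 and 0 at 91 DAP, 1.84, 2.98 and 1.22 at 119 DAP, and 3.56, 3.94 and 6.33 at 147 DAP. It was lower at 147 than at 35 DAP (-0.64 ± 0.23, adjusted p = 0.0234, limma), and the call was lost with a pseudocount of 0.1, quantile normalization, median-ratio scaling and no filter, and without replicate 1 or 3 at 35 DAP or replicate 1 or 2 at 147 DAP (adjusted p of limma from 0.0511 with no filter to 0.518 with quantile normalization over these settings). JreChr02G12307 (chromosome 2, 8747531 to 8759446) had 81.0, 85.7 and 84.4 FPKM at 35 DAP, 88.8, 100.1 and 88.6 at 63 DAP, 16.6, 17.5 and 21.6 at 91 DAP, 43.6, 32.2 and 42.1 at 119 DAP, and 53.8, 84.4 and 51.6 at 147 DAP. Its libraries at 147 and 35 DAP overlapped, although the difference was called (-0.43 ± 0.17, adjusted p = 0.0371, limma). Without replicate 1 at 147 DAP the adjusted p of limma was 0.139 (from 0.00112 to 0.267 over all alternatives), and the call was also lost without replicate 3 at 147 DAP, without any 1 library at 35 DAP, with median-ratio scaling, with no filter and with the replicate number as a block. JreChr13G11628 (chromosome 13, 5119953 to 5121538) had 5.71, 6.01 and 11.3 FPKM at 147 DAP, against 10.4, 11.3 and 8.38 FPKM at 35 DAP, and was not called (-0.40 ± 0.22, adjusted p = 0.118, limma), but without replicate 3 at 147 DAP, its highest library, it was lower (adjusted p of limma = 0.00491, the lowest over all alternatives, with 0.955 the highest), as it was with rescaling to equal sums. Of the genes at the edge of the rule, JreChr04G11353 was higher at 147 than at 35 DAP (0.43 ± 0.13, adjusted p = 0.01, limma), a call lost without replicate 1 at 35 DAP and with rescaling to equal sums. JreChr03G10698 passed narrowly (0.32 ± 0.14, adjusted p = 0.0482, limma) and lost the call with a pseudocount of 0.1, with rescaling to equal sums, with the replicate block, and without any 1 library other than replicate 3 at 91 DAP and replicate 2 at 147 DAP. JreChr09G11773 was listed at 0 in all 3 libraries at 35 DAP and had 8.43, 6.12 and 6.29 FPKM at 147 DAP.

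The height of the last peak relative to the first was not fixed by the rule either. After 63 DAP, however, the rule asks for a fall and then for rises to both 119 and 147 DAP, which tilts the members toward a higher last peak. At 147 against 63 DAP, 73 members were higher, 5 lower and 19 not called, against 19.5% higher and 38.3% lower of all tested genes, and the median difference over the members was 1.06 (all tested genes, -0.21). By means, 84 members had their highest stage at 147 DAP and 13 at 63 DAP, the only stages at which the rule allows it. At 119 against 63 DAP the counts were 13 higher, 20 lower and 64 not called, against 10.7% higher and 21.6% lower of all tested genes, so the shares of the members (13.4% and 20.6%) were near the background. This split was 20 and 18 after quantile normalization, 17 and 16 after median-ratio scaling and 10 and 24 after rescaling to equal sums.

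JreChr07G11421 (chromosome 7, 28654924 to 28655454), singled out here after its values were seen, was the most extreme of the genes with the first peak higher. It had 4.89, 4.94 and 4.61 FPKM at 35 DAP, 345, 224 and 74.6 at 63 DAP, 1.198, 1.05 and 0 at 91 DAP, 2.63, 5.26 and 2.03 at 119 DAP, and 9.38, 6.93 and 11.8 at 147 DAP. The 3 libraries at 63 DAP differed widely among themselves, yet all were far above the rest (147 minus 63 DAP, -4.15 ± 0.46, adjusted p = 3.53e-06, limma). The other 4 members lower at 147 than at 63 DAP were JreChr02G12307, JreChr05G12406, JreChr11G11794 and JreChr13G11628. JreChr07G11420, the gene just outside the rule, lies next to JreChr07G11421 by its number.

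At the 91 DAP trough the median member was close to its level at 35 DAP. At 91 against 35 DAP, 20 members were higher, 12 lower and 65 not called, against 22.4% higher and 37.6% lower of all tested genes, and the median difference was -0.05 (all tested genes, -0.17). After quantile normalization 39 were higher and 11 lower, and after rescaling to equal sums 16 and 22. The sign of the median also changed with the scaling, as it was 0.23 after quantile normalization, 0.03 after median-ratio scaling and -0.16 after rescaling to equal sums. By means, 54 members were lowest at 91 DAP and 43 at 35 DAP, the only stages at which the rule allows it. At 119 against 35 DAP, 66 members were higher, 5 lower and 26 not called, against 22.8% higher and 37.8% lower of all tested genes, with a median difference of 0.79 (all tested genes, -0.18). Without replicate 2 at 119 DAP, the library with the highest embryo sum, 65 were higher and 4 lower. The libraries kept at 119 DAP still had embryo sums of 6467 and 3604 FPKM, against at most 24.1 FPKM at 35 DAP. These counts thus cannot show the part of embryo RNA, which was not tested. JrANR was not called at 91 against 35 DAP (0.50 ± 0.22, adjusted p = 0.0614, limma).

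**Figure D4:**
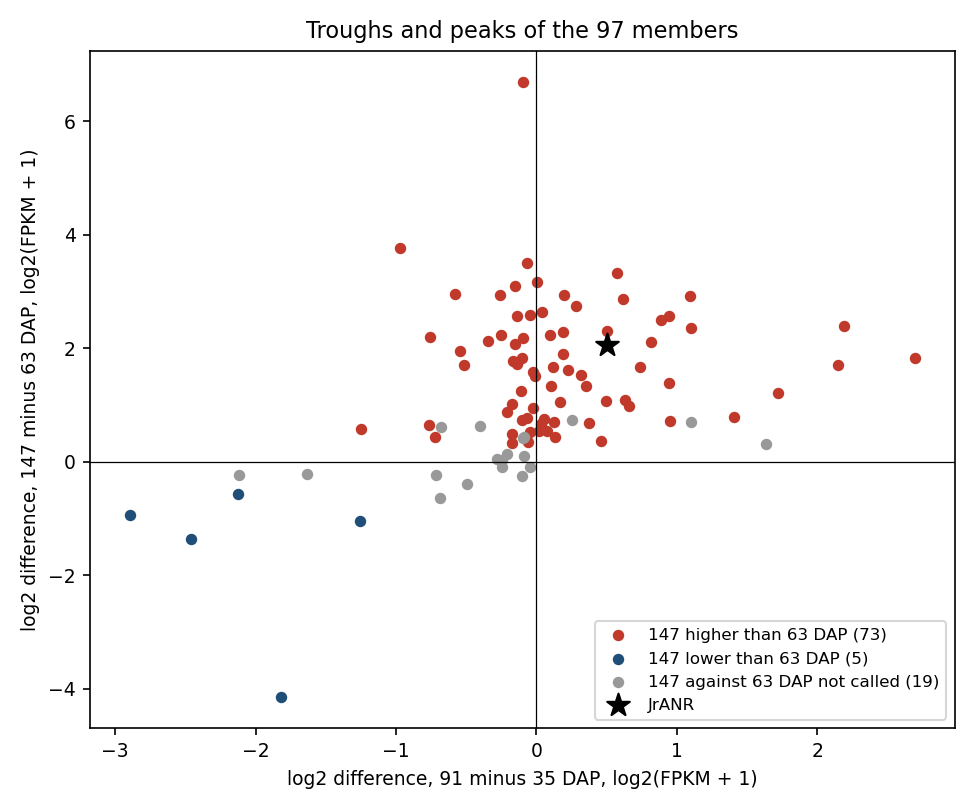
Each point is a member, placed by its log2 difference of 91 minus 35 DAP (x axis, the trough against the start) and of 147 minus 63 DAP (y axis, the last peak against the first), both in log2(FPKM + 1). Colors give the limma call for 147 against 63 DAP (73 higher, 5 lower, 19 not called) and the star is JrANR. The 5 members lower at 147 DAP all lie left of 0 on the x axis.

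Chromosome 5 held 13 members (13.4%, against 8.12% of all tested genes), chromosome 1 held 12 (12.4%, against 10.1%), chromosome 2 held 11 (11.3%, against 6.19%) and chromosome 7 held 10 (10.3%, against 7.87%). Only 2 pairs lay within 50 kb of each other. JreChr05G11464 and JreChr05G11465, adjacent genes on chromosome 5 (30019600 to 30019971 and 30034061 to 30034444), were 14089 bp apart. JreChr05G11464 had 2.49, 4.88 and 3.41 FPKM at 35 DAP, 17.8, 10.7 and 25.2 at 63 DAP, 7.60, 5.13 and 5.15 at 91 DAP, 69.5, 57.2 and 37.7 at 119 DAP, and 173, 133 and 94.0 at 147 DAP, and JreChr05G11465 had 3.25, 4.95 and 3.43 FPKM at 35 DAP, 39.0, 25.7 and 30.7 at 63 DAP, 22.0, 14.1 and 10.6 at 91 DAP, 42.5, 28.2 and 27.4 at 119 DAP, and 97.5, 67.5 and 60.2 at 147 DAP. By their means, JreChr05G11464 was the higher of the pair at 119 and 147 DAP and JreChr05G11465 at 63 and 91 DAP. Whether reads were shared between these neighbors was not tested. JreChr06G10427 and JreChr06G10432 on chromosome 6 were 27347 bp apart with 4 genes between them, and differed in level, with 286, 238 and 213 FPKM and 64.0, 46.5 and 76.3 FPKM at 147 DAP. The members spanned a median of 1607 bp from gene start to end, against 2994 bp over all tested genes, and 33.0% of the members, against 18.5% of all tested genes, spanned under 1000 bp.

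The genes of the flavonoid pathway that the rule did not take are given for comparison. Of 17 listed flavonoid genes 10 were tested, and JrANR, JreChr02G11482 and JreChr02G10304 are the 3 with the full pattern. At 147 against 35 DAP 6 of the 10 were higher, 1 was lower and 3 were not called, against 24.0% higher and 43.7% lower of all tested genes, and 3 of the 6 were the genes with the full pattern. The dihydroflavonol-4-reductase-like gene JreChr11G10846 had 8.62, 9.97 and 8.65 FPKM at 35 DAP, 16.6, 22.0 and 19.4 at 63 DAP, 16.1, 18.4 and 18.9 at 91 DAP, 60.6, 40.9 and 64.8 at 119 DAP, and 59.3, 85.1 and 51.5 at 147 DAP. It followed the same order of stage means, but its libraries at 91 and 63 DAP overlapped, as did those at 147 and 119 DAP (147 minus 119 DAP, 0.23 ± 0.19, adjusted p = 0.391, limma). The second such gene, JreChr11G10794, had 1.96, 2.098 and 1.54 FPKM at 35 DAP, 2.39, 4.11 and 1.41 at 63 DAP, 2.54, 0.584 and 1.10 at 91 DAP, 10.1, 5.95 and 11.9 at 119 DAP, and 12.3, 15.1 and 12.6 at 147 DAP, again with overlap at the early stages and a rise at the end (147 minus 35 DAP, 2.32 ± 0.32, adjusted p = 1.37e-05, limma). The ANR homolog JreChr07G11524 had 419, 356 and 425 FPKM at 35 DAP, 368, 359 and 368 at 63 DAP, 137, 151 and 135 at 91 DAP, 203, 121 and 252 at 119 DAP, and 207, 332 and 189.8 at 147 DAP. It was the most abundant of the ANR homologs at 35 DAP and was lower at 147 DAP (-0.76 ± 0.23, adjusted p = 0.0103, limma), a call lost without replicate 3 at 147 DAP (adjusted p of limma = 0.0526, the highest over all alternatives, with 0.00111 the lowest). The leucoanthocyanidin dioxygenase gene JrLDOX (JreChr03G12442) had 3.87, 4.28 and 3.90 FPKM at 147 DAP, against 10.001, 12.8 and 4.11 FPKM at 35 DAP (-0.87 ± 0.38, adjusted p = 0.0575, limma). It was lower without replicate 3 at 35 DAP (adjusted p of limma = 0.00686, the lowest over all alternatives, with 0.354 the highest), without replicate 1 or 2 at 63 DAP and with rescaling to equal sums.

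The left-out genes set the scale for the members. Chalcone synthase JreChr02G10304 had 63.9, 48.2 and 47.8 FPKM at 35 DAP, 169, 196 and 195 at 63 DAP, 49.4, 52.3 and 129 at 91 DAP, 553, 223 and 529 at 119 DAP, and 571, 1088 and 683 at 147 DAP. Its range of libraries overlapped with that of JrANR at every stage but 35 DAP. JreChr02G11482, an ANR homolog, had 1.25, 1.57 and 0.725 FPKM at 35 DAP, 3.75, 4.12 and 5.13 at 63 DAP, 2.56, 1.71 and 1.21 at 91 DAP, 4.41, 4.63 and 5.48 at 119 DAP, and 9.15, 8.91 and 9.33 at 147 DAP, the same course at a far lower level. By their means at 147 DAP, only JreChr09G10972 and JreChr07G12902 of the 97 members were above JrANR (808 ± 217 FPKM; SD, n = 3) and chalcone synthase (781 ± 272 FPKM; SD, n = 3).

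The deviations of the replicates within a stage were described as well. The rule sets no order of replicates within a stage, but it compares single libraries. A low or high replicate could thus decide whether a gene passed, and the members' deviations are not independent of the rule. Each library's deviation from its stage mean in log2(FPKM + 1) was taken for every gene, and Pearson's r of these deviations over the 15 libraries is given as a description. The mean r over the 4656 pairs of members was 0.023, against 0.042 over pairs of all tested genes. The order of these means depended on the scaling, as the members had 0.049 and all tested genes 0.107 after rescaling to equal sums, but 0.032 against 0.0019 after quantile normalization and 0.080 against 0.0009 after median-ratio scaling. With JrANR, the median r of the members was -0.07 and 44.3% were positive, against a median of 0.23 and 66.8% positive over all tested genes. The median of the members was also below that of all tested genes after rescaling to equal sums (0.04 against 0.32), quantile normalization (-0.27 against 0.03) and median-ratio scaling (-0.30 against 0.0002). The members most like JrANR over all libraries, a measure that includes these deviations, deviated with it, with an r of 0.88 for JreChr02G11831, 0.82 for JreChr08G10320, 0.79 for JreChr02G11537, 0.78 for JreChr05G11706 and 0.62 for JreChr07G11892. Over the 9 other tested flavonoid genes r ran from -0.75 for JreChr13G10907 to 0.95 for JreChr07G11524, which did not share the pattern. It was 0.83 for JreChr11G10846, 0.42 for JreChr11G10794, 0.31 for JreChr03G12442, 0.22 for JreChr02G11484 and -0.13 for JreChr15G10826, and of the genes with the pattern 0.76 for chalcone synthase and -0.01 for JreChr02G11482.

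In JrANR the second replicates at 119 and 147 DAP stood apart from the others of their stage. JrANR had 181 FPKM in replicate 2 at 119 DAP, the lowest of its stage, and 1058 FPKM in replicate 2 at 147 DAP, the highest. This order was shared by 18 members (18.6%) and by 34.7% of all tested genes. Neither these shares nor those that follow were recomputed with scaling between libraries. The factor of median-ratio scaling, taken over tested genes above 0 in every library, had the same order. In replicate 2 it was the lowest at 119 DAP (0.903, against 1.05 and 1.001) and the highest at 147 DAP (0.976, against 0.855 and 0.904). The part of such shifts in the shares was not tested. The rule also compared single libraries of these stages, so the shares of the members are not independent of it. The opposite order, highest at 119 DAP and lowest at 147 DAP in replicate 2, was held by 22 members (22.7%) and 10.7% of all tested genes, among them JreChr01G13075, JreChr01G12424 and JreChr10G12201. In replicate 2 at 147 DAP 46.4% of the members, against 24.4% of all tested genes, were at their lowest of the stage. In replicate 1 at 147 DAP 22.7% of the members were at their lowest, against 48.8% of all tested genes, and 41.2% at their highest, against 24.5%. In replicate 2 at 119 DAP 46.4% of the members were at their lowest, against 54.6% of all tested genes. Replicate 2 at 119 DAP also had the highest embryo sum, and the deviations of JrANR had an r of -0.60 with the mean deviation of the embryo list, whereas the median r of the members with that list was -0.06, with 53 negative and 44 positive. The part of embryo RNA in these deviations was not tested. Without replicate 2 at 119 DAP the rule, looser by construction, took 127 genes.

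**Figure D5:**
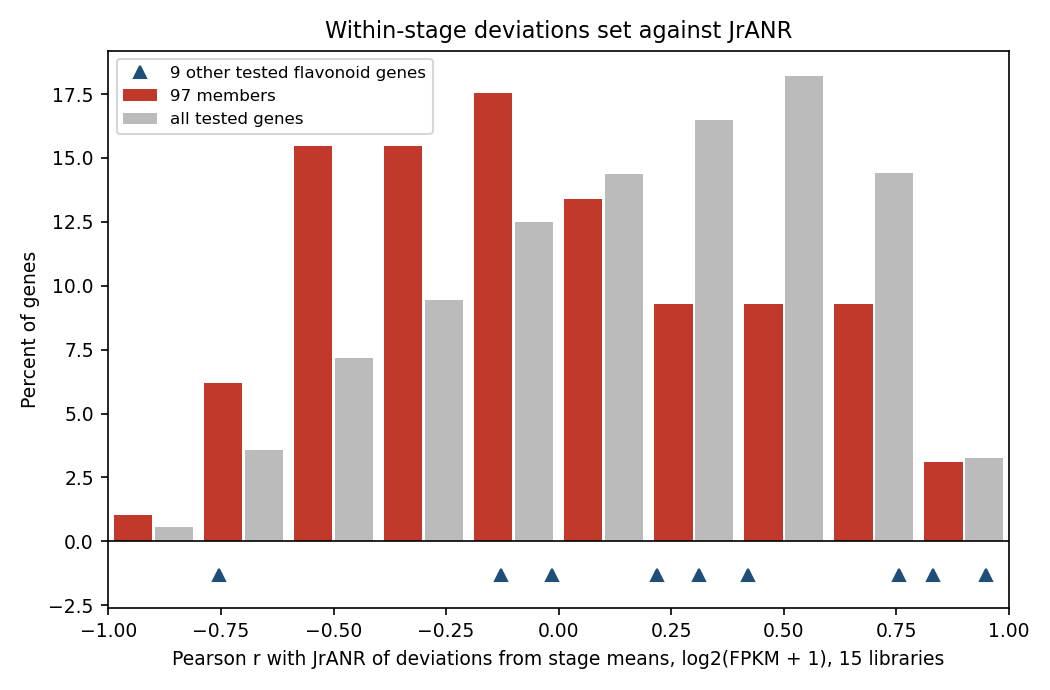
Percent of genes (y axis) by Pearson's r with JrANR of the deviations from stage means over 15 libraries (x axis, bins of 0.2), for the 97 members (red) and all tested genes (gray). Triangles mark the 9 other tested flavonoid genes. Of the members 44.3% lie above 0, against 66.8% of all tested genes.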

How the data were processed

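RNA-seq of walnut endopleura was analysed in 15 libraries, 3 at each of 35, 63, 91, 119 and 147 DAP. The authors mapped the reads to the J. regia assembly they had made, with HISAT2 2.1.0, estimated expression with StringTie 1.3.5 and deposited FPKM values for 39414 genes, with no stated scaling between libraries. Gene positions refer to that assembly. As FPKM is not a count, count models were not fitted. Relative depth was read from ratios of values under 0.1 FPKM, and 103 of the 105 pairs of libraries fell within 0.02 (natural log) of 1 common solution.

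From the deposited FPKM, log2(FPKM + 1) was fitted with limma 3.58.1 in R 4.3.3 (lmFit, eBayes with trend), with 1 coefficient per stage and all libraries in the fit. The 22310 genes that reached 1 FPKM in 3 or more libraries were tested, with Benjamini-Hochberg adjustment and a threshold of 0.05. The fit was tested on simulated data with independent normal noise for each gene. These held no shift shared by the genes of a library, so the test does not cover differences of scale between libraries. Other steps used Python 3.11.15 with numpy 2.4.6, pandas 2.3.3 and matplotlib 3.10.9. The members and gene lists were chosen with earlier results of these data known. Genes named are the annotated members, the 5 with the highest mean at 147 DAP, the 5 most correlated with JrANR, the 5 largest and 3 smallest differences between 147 and 35 DAP, 3 on each side of the rule, those within 50 kb of another and the flavonoid and embryo lists. Annotations of the members are from the study's supplementary tables. JreChr02G11482 had no entry in those read, so its naming as an ANR homolog does not come from them. The RefSeq table matched 0 of the identifiers, so no sequences were used.

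Results were recomputed with a pseudocount of 0.1, with quantile, equal-sum (TPM) and median-ratio scaling, without a filter, with a mean of at least 5 FPKM, with eBayes run without trend, with a replicate block, with a gap of 1.2 times, with stage means and limma steps, and without each library in turn. When a library was left out, the set of tested genes was kept.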

Additional observations from a re-analysis of the deposited data

How the results depend on the processing

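Of 336 values of counts and medians recomputed under the alternatives, 307 kept their direction and stayed within their limits and 29 moved. The cause was not tested except where the alternative itself sets it. The number of genes with the pattern was 97 and became 42 with a gap of 1.2 times, which is stricter by construction, and 48 with stage means and limma steps, of which 42 were members. It ran from 99 to 150 with a library left out, which can only loosen the rule and so cannot lose a member, and was highest without replicate 3 at 91 DAP. The rule was met by 67 of the members after quantile normalization, 84 after median-ratio scaling and 71 after rescaling to equal sums. Members lower at 147 than at 35 DAP were 2 and became 1 with a pseudocount of 0.1, quantile normalization, a mean of at least 5 FPKM or the replicate block, 0 with median-ratio scaling or no filter, and 0 to 2 without 1 library. Members higher at 91 than at 35 DAP became 39 with quantile normalization (from 15 to 22 without 1 library), and members lower became 22 with rescaling to equal sums. Members higher at 119 than at 63 DAP became 20 with quantile normalization. The flavonoid genes lower at 147 than at 35 DAP were 1 and became 3 with rescaling to equal sums, 2 with the replicate block and 0 to 3 without 1 library. The median difference of the members between 147 and 35 DAP became 2.58 with a pseudocount of 0.1, 2.57 with quantile normalization, 2.60 with median-ratio scaling and 2.06 with rescaling to equal sums. The mean r of the members' deviations became 0.080 with median-ratio scaling and 0.049 with rescaling to equal sums, against 0.0009 and 0.107 over all tested genes. Of 915 recomputed differences of named genes, 35 lost and 10 gained a call and none changed sign after a call.

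Whether libraries with the same replicate number share a source is not stated. Same-numbered libraries deviated together (r above 0.1) in 10 of 30 pairs of stages, with r from -0.40 to 0.41. Libraries with different numbers were not compared, so these values cannot decide it. With the number as a block, 90 members were higher at 147 than at 35 DAP, and no count changed other than the 2 given above by over 1.5 times. Absolute depth is unknown, which limits what can be said of genes listed at 0.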

Other observations

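Genes whose libraries separated at all 4 successive steps could follow any of 16 courses. The course of JrANR was the fifth most frequent, with 100 genes. More frequent were down, down, up, down (235 genes), up, up, down, down (209), down, down, up, up (182) and down at every step (159). The least frequent was down, up, up, down (15 genes). Close behind the course of JrANR came up, down, down, down (93 genes) and up at every step (92). The courses were ranked without scaling between libraries, and the ranks were not recomputed with it.

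JreChr09G10972, JreChr02G11398, JreChr10G10929 and JreChr14G10395 each had their highest library at 147 DAP in replicate 1, with 2094, 496, 391 and 195 FPKM. Replicate 1 at 147 DAP was the highest of its stage in 40 members (41.2%), against 24.5% of all tested genes. This was counted without scaling between libraries, and replicate 1 had the lowest median-ratio factor of that stage (0.855).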
